A study of Homo sapiens with 12 samples.

Results

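The genes described here encode the enzymes of the middle of glycolysis, from aldolase to enolase. They were taken by name from the count and RPKM tables, and all 9 of them were found among the 25369 genes listed: the aldolases ALDOA and ALDOC, the triosephosphate isomerase TPI1, the dehydrogenase GAPDH, the phosphoglycerate kinase PGK1, the phosphoglycerate mutase PGAM1, and the enolases ENO1, ENO2 and ENO3. Poly(A)+ RNA was sequenced from 3 human cancer cell lines, RKO (colon carcinoma), A549 (lung adenocarcinoma) and H460 (lung large cell carcinoma). Each line was kept in normoxia or placed in hypoxia (1% O2) for 24 h, with 2 independent biological replicates for each of the 6 groups and 12 libraries in all. RKO and A549 were grown in DMEM and H460 in RPMI, so line and medium cannot be told apart for H460. Each group was a culture of a single established line, without a genetic change named in the labels, and the comparison asks how 24 h of low oxygen changed these mRNAs in each line.

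Aldolase splits a six-carbon sugar phosphate into a pair of triose phosphates, which TPI1 interconverts. GAPDH and PGK1 then oxidize the triose and make the first ATP of the pathway, PGAM1 moves the phosphate, and enolase removes water to give phosphoenolpyruvate. Several of these genes are textbook targets of the hypoxia-inducible factors, which bind DNA at a short core motif. ALDOA is the broadly expressed aldolase and ALDOC the isoform best known from brain, while ENO1 is the broadly expressed enolase, ENO2 the neuronal and ENO3 the muscle isoform.

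The sequence upstream of 4 of the genes is shown because they cover the range of the responses described next: PGK1, ALDOC and ENO2 were higher in hypoxia in every line, and ENO1 passed the call in no line. Each is the 300 bases before the 5′ end of the gene as listed in the deposited table (GRCh37), read 5′ to 3′ on the strand of the gene. They lie at chrX:77359366-77359665 (plus strand) for PGK1, chr17:26903952-26904251 (minus) for ALDOC, chr12:7023314-7023613 (plus) for ENO2 and chr1:8939152-8939451 (minus) for ENO1. Capitals mark the letters ACGTG or GCGTG on either strand, with overlapping matches joined.
PGK1: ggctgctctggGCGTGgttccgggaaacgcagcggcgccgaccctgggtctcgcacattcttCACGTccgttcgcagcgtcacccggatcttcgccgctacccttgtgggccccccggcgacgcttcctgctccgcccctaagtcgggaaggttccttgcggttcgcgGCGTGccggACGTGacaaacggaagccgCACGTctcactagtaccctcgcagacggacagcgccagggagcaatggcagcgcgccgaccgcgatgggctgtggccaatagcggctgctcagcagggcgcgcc
ALDOC: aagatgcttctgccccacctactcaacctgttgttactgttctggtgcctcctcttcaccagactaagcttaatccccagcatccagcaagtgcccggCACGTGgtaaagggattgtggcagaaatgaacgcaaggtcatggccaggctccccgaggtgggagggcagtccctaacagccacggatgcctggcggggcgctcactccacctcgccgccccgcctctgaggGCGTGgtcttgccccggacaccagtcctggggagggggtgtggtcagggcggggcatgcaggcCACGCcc
ENO2: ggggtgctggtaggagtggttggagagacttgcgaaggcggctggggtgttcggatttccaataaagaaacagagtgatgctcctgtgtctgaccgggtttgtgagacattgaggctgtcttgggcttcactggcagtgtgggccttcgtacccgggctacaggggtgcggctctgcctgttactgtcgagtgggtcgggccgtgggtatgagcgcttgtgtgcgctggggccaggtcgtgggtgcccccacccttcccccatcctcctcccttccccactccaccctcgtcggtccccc
ENO1: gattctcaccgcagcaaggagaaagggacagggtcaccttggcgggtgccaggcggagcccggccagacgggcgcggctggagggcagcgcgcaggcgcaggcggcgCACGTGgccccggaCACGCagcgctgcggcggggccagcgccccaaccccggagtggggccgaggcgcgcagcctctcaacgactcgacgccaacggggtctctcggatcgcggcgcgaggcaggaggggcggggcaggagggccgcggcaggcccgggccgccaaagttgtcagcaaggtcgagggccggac

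PGK1 had 5 such matches in its window, ALDOC 3, and ENO1 and PGAM1 2 each. The windows of ALDOA, TPI1, ENO2 and ENO3 had 0. Of 24992 windows of the same length over all genes with a usable position, 50.3% held at least 1 match, 20.8% at least 2, 7.41% at least 3, 2.46% at least 4 and 0.820% at least 5. Matches are a description of the letters in these windows and not of binding. Matches were not tested against the response. The listed 5′ end of ALDOA lies 12670 bases upstream of the start of its canonical transcript in GENCODE, so its window is not the promoter of that transcript. For the other 7 genes searched the 2 starts were at most 406 bases apart, and the canonical start of PGAM1 was 79 bases upstream of the listed one. The 406 bases were those of ENO1, whose window thus does not hold the 300 bases before its canonical start. The canonical start lay 79 bases downstream of the listed one for PGK1, 38 for ALDOC and 130 for ENO2.

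**Figure D1:**
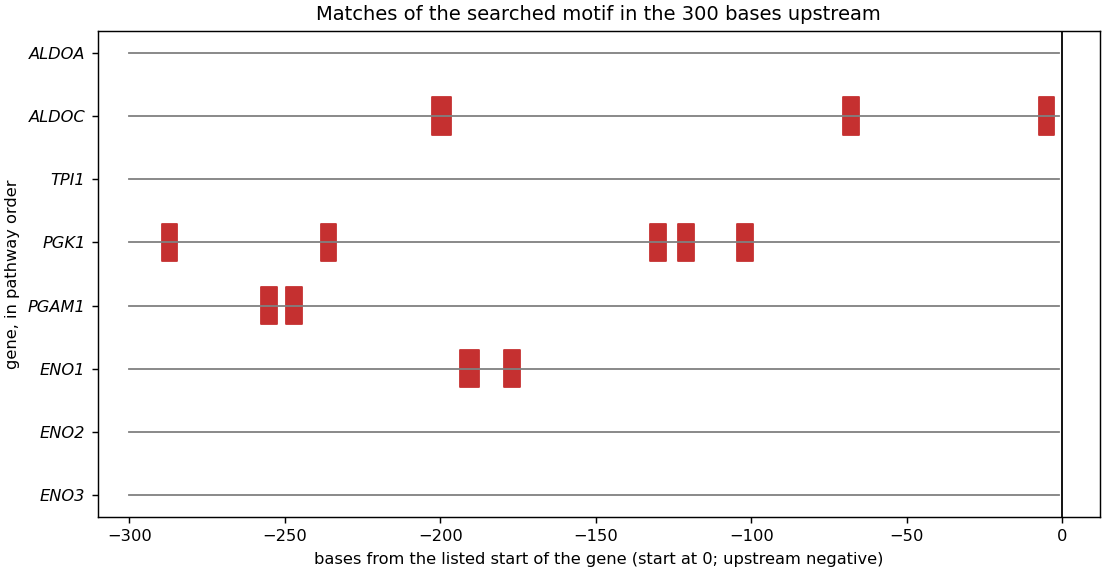
Positions of the motif letters (red) in the 300 bases upstream of the listed start of 8 of the genes. The horizontal axis gives the distance in bases from that start, and each row is 1 gene in pathway order. PGK1 holds 5 matches, and ALDOA, TPI1, ENO2 and ENO3 hold 0.

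Library size ranged from 27350424 to 41757584 counted reads, and the 2 replicates of each group were further apart than counting error alone would put them. Differences are relative to TMM (trimmed mean of M values) scaling. Scaling by library size alone would shift all log2 fold changes by a median of 0.08 in RKO, -0.09 in A549 and -0.35 in H460, so the H460 changes depend on that reference. Levels are given as RPKM (reads scaled to gene length and to the counted reads of the library). The length is the exonic length listed for each gene, which can differ from that of its canonical transcript in GENCODE. These are 3223 and 1640 bases for ALDOA, 3253 and 1781 for ENO1, and 2423 and 4812 for PGK1. Orders and ratios between genes depend on that length, and changes of 1 gene do not. In the edgeR test of 1 line, a gene was called with an adjusted p below 0.1 together with a fold change over 1.5. The lines were checked against fixed epithelial and tissue markers. Of EPCAM, KRT8, KRT18 and CDH1, 3 were over 1 RPKM on average in RKO, 4 in A549 and 2 in H460. CDX2 alone of 4 colon markers was over 1 RPKM in RKO, where CDX1 and VIL1 were at 0. Of 4 lung markers 1 was over 1 RPKM in A549 and none in H460 normoxia. In H460 hypoxia 1 was, NKX2-1, which went from 0.0146 to 1.14 RPKM and was called higher (log2 fold change 6.58, adjusted p = 4.69e-07), and its part in the H460 results was not tested. The 4 leukocyte markers summed to at most 7.41 RPKM in any library. The 4 endothelial and fibroblast markers summed to 8.37 to 15.0 RPKM in A549 normoxia and 21.9 to 69.9 in hypoxia. In the other lines they summed to at most 4.98. Nearly all of the A549 sums was COL1A1, at a mean of 11.6 RPKM in normoxia and 45.8 in hypoxia. COL1A1 was called higher in A549 (log2 fold change 2.08) and RKO (2.15) and not in H460 (0.51). The part of these markers in the results was not tested.

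GAPDH was the most abundant of the 9 mRNAs in every group. In normoxia its mean level was 1799 ± 208 RPKM in RKO, 2736 ± 265 in A549 and 2635 ± 127 in H460 (SD, n = 2 here and throughout). ENO1 came second in each line with 824 ± 60.7, 702 ± 64.6 and 866 ± 32.5 RPKM. ALDOA, TPI1, PGK1 and PGAM1 followed at 211 to 496 RPKM. TPI1 and PGAM1 overlapped in RKO, PGK1 and PGAM1 in A549, and PGK1 and TPI1 in H460, so the order of those neighbours was not separated by the replicates. ALDOC, ENO2 and ENO3 were the 3 lowest in each line, at 2.97 to 83.2 RPKM. In hypoxia PGK1 moved to second place by RPKM in all 3 lines, at 1175 ± 45.5, 908 ± 91.9 and 1509 ± 22.1. It overlapped its neighbour ALDOA in RKO and ENO1 in A549, and stood apart from both in H460. By counted reads, without length, ENO1 stayed above PGK1 in A549 hypoxia (123768 and 96218 against 85273 and 84199). PGK1 was above ENO1 in H460 hypoxia (109124 and 128227 against 92252 and 111972). The place of PGK1 thus depends on the listed lengths.

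**Figure D2:**
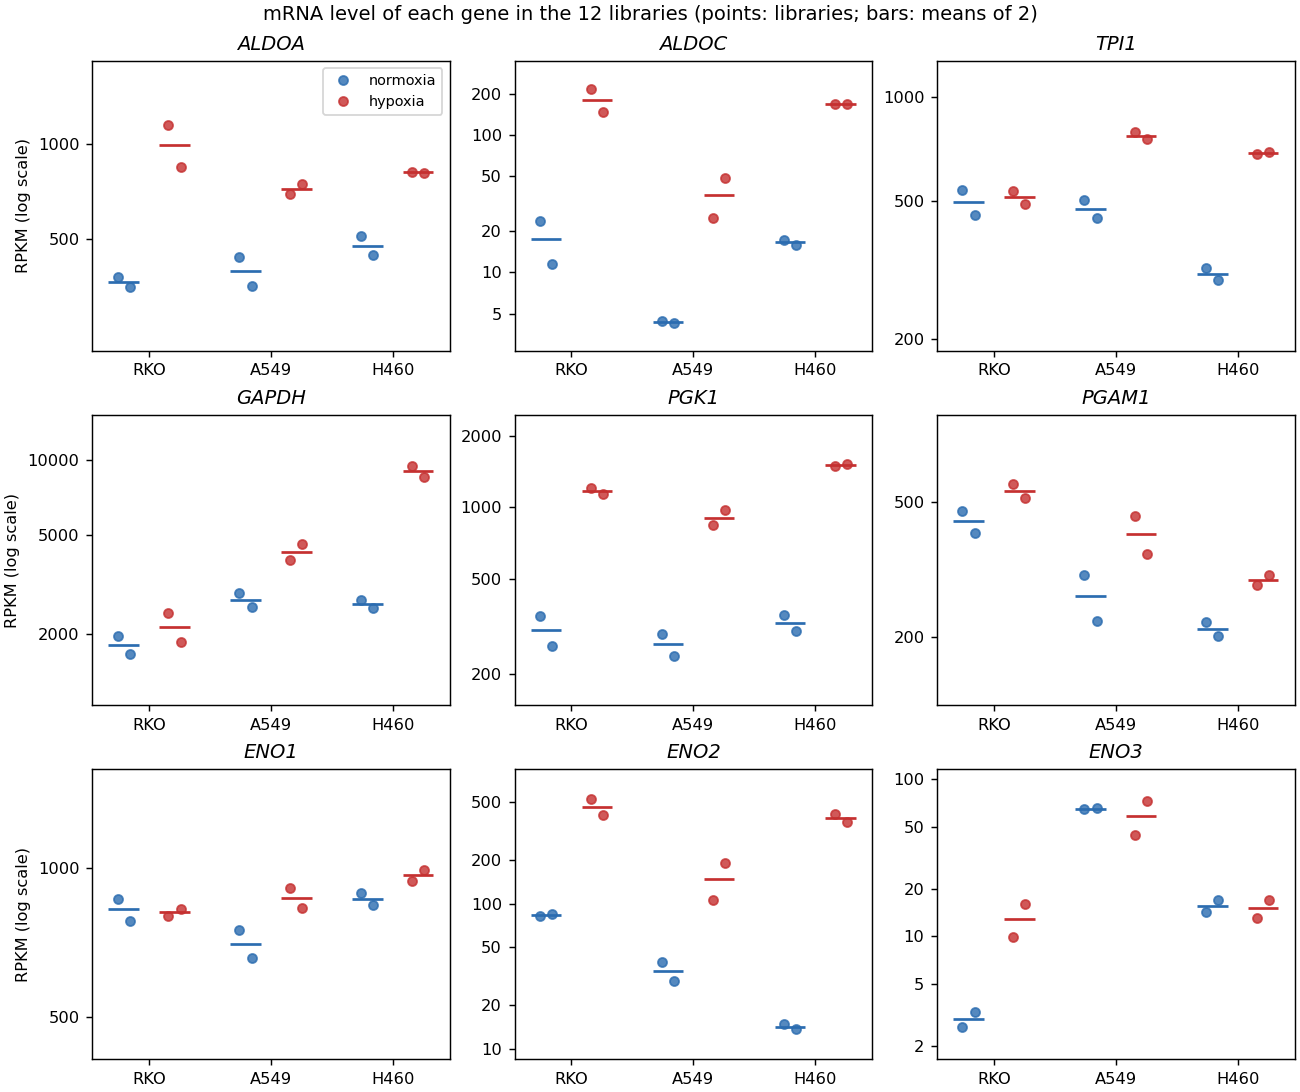
RPKM of each gene (vertical axes, log scale) in the 12 libraries, by cell line. Blue points are normoxia and red points hypoxia libraries, and horizontal bars are means of 2. For ALDOC, PGK1, ENO2 and ALDOA all red points lie above the blue points of the same line, whereas ENO1 and ENO3 stay close or overlap in several lines.

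Hypoxia raised ALDOA, ALDOC, PGK1 and ENO2 in all 3 lines. ALDOA and PGK1 rose by 1.94 to 5.86 times, and the less abundant isoforms ALDOC and ENO2 rose by 4.59 to 35.1 times. Of the 9 genes, 5 were called higher in RKO, where 18.8% of all tested genes were. In A549 5 were called higher against 2.22% of genes, and in H460 7 against 24.6%. None was called lower in any line, where 15.1%, 0.456% and 27.3% of genes were, so that calls in either direction were 5, 5 and 7 of 9 beside 33.9%, 2.67% and 51.9% of genes. At an unadjusted p under 0.05, 0 of the 9 were lower in any line, and DESeq2 also called 0 lower. The median log2 fold change of the 9 was 1.37 for RKO, 0.79 for A549 and 1.51 for H460, with medians over all genes tested of 0.01, -0.01 and -0.04. Both hypoxia libraries lay above both normoxia libraries, in TMM-scaled CPM (counts scaled to library size), for 5 of the 9 in RKO (35.2% of genes), 8 in A549 (25.1%) and 9 in H460 (41.8%). For 0 of the 9 did both lie below (35.1%, 24.7% and 44.6% of genes). In such bulk RNA, more of an mRNA in each cell and a larger share of cells with that mRNA cannot be told apart.

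**Figure D3:**
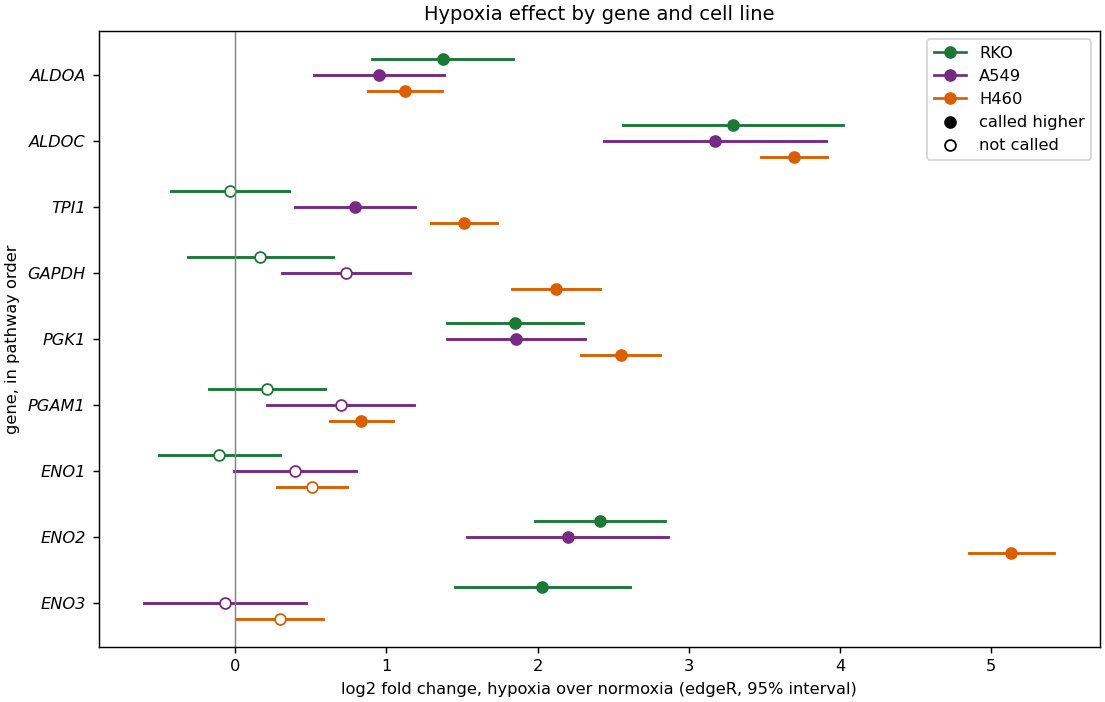
Log2 fold change of hypoxia over normoxia (horizontal axis) with its 95% interval, for each gene in pathway order and each line. Filled circles were called higher and open circles were not called. The 3 lines lie close together for ALDOA and ALDOC, and spread apart for TPI1, GAPDH, ENO2 and ENO3.

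ALDOC had low counts in normoxia and gained most among the aldolases. Its gene spans 26900133 to 26903951 on chromosome 17. In RKO the normoxia libraries had 23.4 and 11.4 RPKM and the hypoxia libraries 216 and 147. In A549 they had 4.43 and 4.29, then 24.7 and 48.8. In H460 they had 17.2 and 15.9, then 168 and 169. Both hypoxia libraries were above both normoxia libraries of each line, and A549 was below the other lines in both conditions. The log2 fold changes were 3.30 ± 0.33 in RKO, 3.17 ± 0.33 in A549 and 3.70 ± 0.10 in H460 (± SE, adjusted p = 1.15e-04, 0.0044 and 3.79e-10). RKO normoxia replicate 1 and A549 hypoxia replicate 2 weighed on these values: without them the changes were 3.94 in RKO and 2.58 in A549, both still called.

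ALDOA (chromosome 16, 30064411 to 30081741) was already abundant and rose less. RKO normoxia had 377 and 352 RPKM, A549 normoxia 436 and 355 and H460 normoxia 508 and 442. Its hypoxia libraries had 1147 and 845, 692 and 747, and 815 and 810 RPKM in the same order, above normoxia in each line. ALDOA changed by 1.37 ± 0.21, 0.95 ± 0.19 and 1.12 ± 0.11 log2 units (adjusted p = 8.55e-04, 0.0542 and 2.85e-06). The A549 call was lost without normoxia replicate 2 (adjusted p = 0.188), and with limma on log2 (RPKM + 1) (0.102). Neither aldolase was called different in response between any pair of lines. The intervals of those differences were wide for ALDOC, from -0.85 to 1.19 for RKO minus A549, -1.35 to 0.64 for RKO minus H460 and -1.54 to 0.50 for A549 minus H460, and without A549 hypoxia replicate 2 the last pair was called (-1.13, adjusted p = 0.0682). For ALDOA they ran from -0.11 to 1.04, -0.28 to 0.87 and -0.75 to 0.40. With scaling by library size alone the RKO minus H460 difference of ALDOA was called (0.68, adjusted p = 0.0317), and without RKO hypoxia replicate 2 that of RKO minus A549 (0.73, adjusted p = 0.0896).

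TPI1 (chromosome 12, 6976584 to 6980110) separated the lines. RKO had 537 and 455 RPKM in normoxia and 534 and 491 in hypoxia, which overlap. A549 went from 504 and 447 to 793 and 754, and H460 from 321 and 297 to 686 and 695, with no overlap. TPI1 had log2 fold changes of -0.04 ± 0.18 (adjusted p = 0.896), 0.79 ± 0.18 (0.0774) and 1.51 ± 0.10 (9.95e-08). The A549 call was near the threshold and was lost without any 1 of 3 libraries, normoxia replicate 1 or 2 or hypoxia replicate 2 (adjusted p = 0.124, 0.239 and 0.107). It was also lost with library-size scaling (0.120). All 3 pairwise differences were called, at -0.78 for RKO minus A549 (adjusted p = 0.0414), -1.50 for RKO minus H460 (2.43e-04) and -0.72 for A549 minus H460 (0.0234). The first of these was lost without RKO normoxia replicate 1, RKO hypoxia replicate 2 or A549 normoxia replicate 2 (adjusted p = 0.156, 0.101 and 0.121).

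GAPDH, often used as a reference mRNA, is listed on chromosome 12 from 6643571 to 6647541. It had 1946 and 1652 RPKM in RKO normoxia and 2420 and 1848 in hypoxia. In A549 it went from 2923 and 2549 to 3955 and 4581 RPKM. In H460 it went from 2725 and 2545 to 9462 and 8505 RPKM, the highest level of any of the 9 genes in any library and the first rank among all genes by counted reads. The ranges overlapped in RKO, and were apart in A549 and H460. For GAPDH the log2 fold changes were 0.17 ± 0.22 (adjusted p = 0.578), 0.73 ± 0.19 (0.113) and 2.12 ± 0.13 (6.58e-08), so that GAPDH passed in H460 alone. In A549 it passed with DESeq2 (adjusted p = 0.0190) and in the joint fit of all libraries (0.0440). It also passed there with no filter on low counts (0.0188) or a filter of 5 CPM (0.0913). Without hypoxia replicate 1 it passed too, with a log2 fold change of 0.85. The response was smaller than in H460, with differences of -1.91 ± 0.29 for RKO minus H460 and -1.39 ± 0.28 for A549 minus H460 (adjusted p = 3.19e-04 and 0.00304). RKO and A549 were not called different (-0.52, interval -1.13 to 0.09).

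PGK1 (chromosome X, 77359666 to 77382324) rose strongly in each line. RKO normoxia had 350 and 264 RPKM, A549 normoxia 296 and 238 and H460 normoxia 354 and 304. In hypoxia it reached 1207 and 1143, 843 and 973, and 1493 and 1524 RPKM, more than 2 times any normoxia library of any line. PGK1 changed by 1.85 ± 0.21, 1.86 ± 0.20 and 2.55 ± 0.12 log2 units (adjusted p = 1.81e-04, 0.00467 and 7.61e-09). The response was called larger in H460 than in RKO (-0.65, adjusted p = 0.0784) and than in A549 (-0.69, adjusted p = 0.0657). These 2 calls were lost with library-size scaling (-0.26 and -0.43, adjusted p = 0.406 and 0.167). The RKO call was also lost without RKO normoxia replicate 1, RKO hypoxia replicate 2, H460 normoxia replicate 2 or either H460 hypoxia library. The A549 call was lost without A549 normoxia replicate 1, A549 hypoxia replicate 1, H460 normoxia replicate 2 or either H460 hypoxia library.

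PGAM1 (chromosome 10, 99186027 to 99193198) rose in H460 and was not called in RKO or A549. Its libraries had 472 and 406 RPKM in RKO normoxia and 564 and 512 in hypoxia. In A549 they had 303 and 223, then 453 and 351, and in H460 221 and 201, then 285 and 305. Its log2 fold changes were 0.21 ± 0.18 (adjusted p = 0.366), 0.70 ± 0.22 (0.174) and 0.84 ± 0.10 (8.63e-06). With library-size scaling its H460 change was 0.48, under the fold minimum. In A549 the joint fit, DESeq2 and the fit with no filter on low counts called it (adjusted p = 0.0350, 0.0681 and 0.0824). It was also called there without hypoxia replicate 2, with a log2 fold change of 0.86. No difference between lines was called for PGAM1, with the interval for RKO minus H460 from -1.12 to -0.03 (adjusted p = 0.103). That difference was called with DESeq2 (adjusted p = 0.0628) and without RKO hypoxia replicate 1 or RKO normoxia replicate 2 (0.0820 and 0.0913), and RKO minus A549 was called without A549 normoxia replicate 1 (-0.69, adjusted p = 0.0974).

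ENO1 (chromosome 1, 8921059 to 8939151), the main enolase, was called in no line. It had 867 and 781 RPKM in RKO normoxia and 800 and 826 in hypoxia. In A549 it had 748 and 656, then 911 and 828, and in H460 889 and 843, then 940 and 991. Its log2 fold changes were -0.10 ± 0.18 (adjusted p = 0.686), 0.40 ± 0.18 (0.307) and 0.51 ± 0.10 (9.29e-04). In H460 the adjusted p passed and the fold of 1.42 did not. The RKO and A549 responses were not called different (-0.46, interval -0.91 to -0.003, adjusted p = 0.198). That difference was called with DESeq2 (adjusted p = 0.0584) and with a replicate block in edgeR (0.0368). A549 and H460 were not called different (-0.11, interval -0.56 to 0.34). The RKO and H460 responses were called different (-0.57, adjusted p = 0.0567), a call that was lost with library-size scaling (-0.18, adjusted p = 0.481). It was also lost without any 1 of the 4 H460 libraries, RKO normoxia replicate 1 or RKO hypoxia replicate 2 (adjusted p from 0.106 to 0.181).

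ENO2 (chromosome 12, 7023614 to 7032859) had the largest change of the 9 genes after ALDOC in RKO and A549, and the largest in H460. In RKO its libraries had 81.8 and 84.5 RPKM in normoxia and 528 and 405 in hypoxia. In A549 they had 39.8 and 29.5, then 107 and 191. In H460 they had 14.9 and 13.7, then 416 and 367. Normoxic ENO2 was thus lowest in H460 and highest in RKO. In hypoxia the RPKM of H460 and RKO overlapped, while A549 stayed below both. Divided by the TMM factors, the hypoxia values were 530 and 443 in H460 and 508 and 361 in RKO. ENO2 changed by 2.41 ± 0.19, 2.20 ± 0.30 and 5.13 ± 0.13 log2 units (adjusted p = 5.12e-05, 0.00964 and 2.17e-10), the last being 35.1-fold and the 30th highest of all 14080 genes tested in H460. The response was largest in H460, with differences of -2.67 ± 0.36 for RKO minus H460 and -2.93 ± 0.36 for A549 minus H460 (adjusted p = 1.62e-04 and 1.36e-04). RKO and A549 were not called different (0.26, interval -0.50 to 1.02). Of 4 neuron markers measured beside ENO2, RBFOX3 was at 0 in RKO. TUBB3 was called higher in RKO (1.49) and H460 (0.97) but not in A549 (0.18), and MAP2 was called higher in RKO (1.37) and lower in A549 (-2.03) and H460 (-1.48). The summed level of the 4 was 8.16 to 9.15 RPKM in RKO normoxia and 23.3 to 27.4 in hypoxia, 72.7 to 119 and 100 to 102 in A549, and 58.3 to 62.1 and 85.5 to 88.8 in H460, and their part in the ENO2 values was not tested.

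ENO3 (chromosome 17, 4854384 to 4860426) was the scarcest member in RKO and was called there alone. RKO had 2.66 and 3.29 RPKM in normoxia and 9.92 and 16.0 in hypoxia, from 146 and 185 counts to 592 and 816. A549 had 65.0 and 65.4, then 44 and 72.5, and H460 had 14.3 and 17.0, then 13.1 and 17.1. The conditions were apart in RKO and overlapped, in RPKM, in A549 and H460. The log2 fold changes were 2.03 ± 0.26 (adjusted p = 3.70e-04), -0.07 ± 0.24 (0.915) and 0.30 ± 0.13 (0.0553, under the fold minimum). The response in RKO exceeded that in A549 by 2.14 ± 0.35 and that in H460 by 1.78 ± 0.35 log2 units (adjusted p = 0.00286 and 0.00203). A549 and H460 were not called different (-0.36), except without A549 hypoxia replicate 2 (-0.80, adjusted p = 0.0585). The muscle markers CKM and MYH1 were at 0 in both RKO groups and in all others but H460 normoxia, and no muscle marker passed 1 RPKM on average in any group.

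Across the pairs of lines, 2 of the 9 responses were called different for RKO against A549 (14.6% of all genes), 1 larger in RKO (9.03%) and 1 smaller (5.53%). For RKO against H460 6 were called (37.6%), 1 larger in RKO (21.1%) and 5 smaller (16.4%). For A549 against H460 4 were called (36.0%), all smaller in A549 (17.2%) and 0 larger (18.8%). At an unadjusted p under 0.05 in edgeR 0 were larger in A549, and DESeq2 also called 0 larger. These tests used the adjusted p alone, with no fold minimum. ENO2 and GAPDH were called in both pairs with H460, ENO3 in both pairs with RKO, and TPI1 in all 3 pairs. The RKO to H460 lower calls numbered 3 in place of 5 with library-size scaling.

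The balance of isoforms moved towards the minor aldolase and the minor enolase in every line. Shares here use the listed exonic lengths, 3223 bases for ALDOA, 1651 for ALDOC, 3253 for ENO1 and 2423 for ENO2. The canonical transcripts have 1640, 1608, 1781 and 2294 bases, and the shares of ALDOC and ENO2 would be smaller at those lengths. The change of a ratio with hypoxia does not depend on the lengths. ALDOC made up 4.50% ± 1.92 of summed aldolase RPKM in RKO normoxia and 15.3% ± 0.748 in hypoxia. In A549 it went from 1.10% ± 0.134 to 4.79% ± 1.90, and in H460 from 3.37% ± 0.141 to 17.1% ± 0.133. ALDOA therefore stayed the major aldolase throughout, at 82.8% or more in each library. ENO2 made up 9.16% ± 0.799 of summed enolase RPKM in RKO normoxia and 36.0% ± 4.92 in hypoxia. In A549 the ENO2 share went from 4.30% ± 0.522 to 13.8% ± 5.30, and in H460 from 1.59% ± 0.0416 to 28.5% ± 2.63. ENO1 kept 59.8% of enolase RPKM in its lowest library, RKO hypoxia replicate 1. ENO3 exceeded ENO2 in A549 normoxia, at 7.62% and 8.70%, and was at most 1.95% in any RKO or H460 library.

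**Figure D4:**
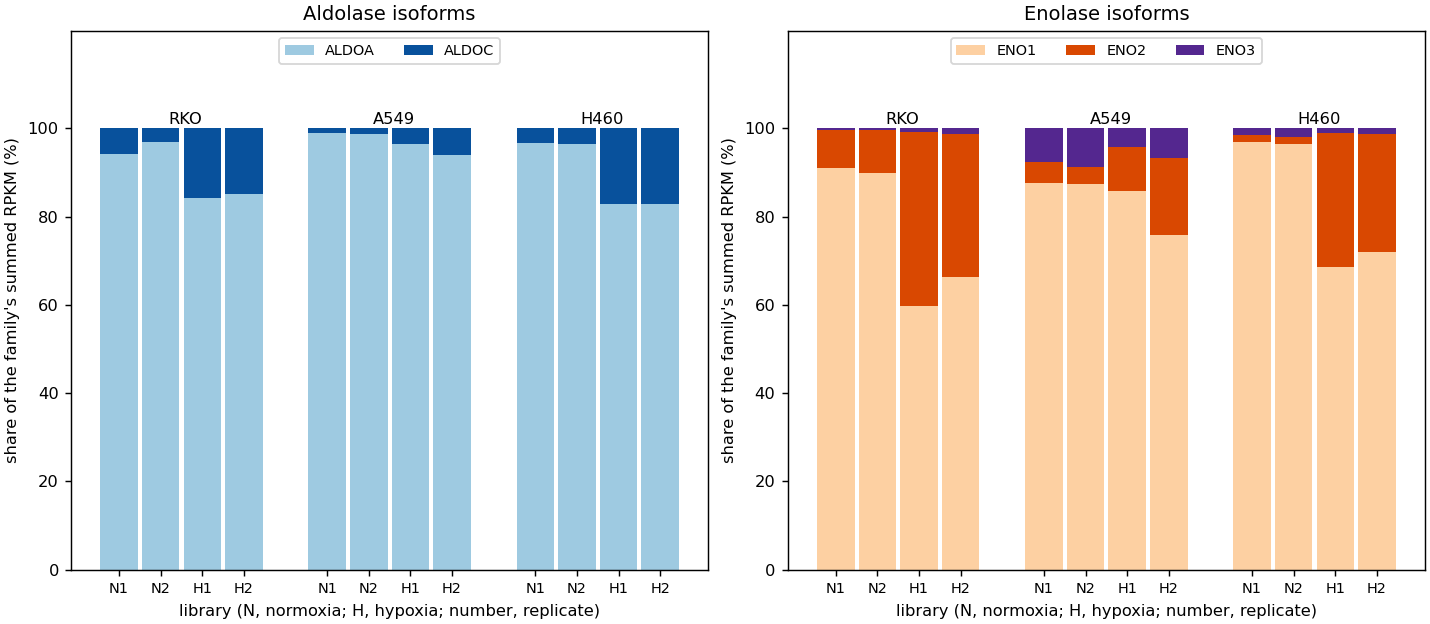
Share of the summed RPKM of each family (vertical axis, %) taken by each isoform, in each library (N, normoxia and H, hypoxia, with the replicate number). The left panel is aldolase and the right panel enolase. ALDOC and ENO2 take a larger share in both hypoxia libraries than in both normoxia libraries of each line.

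The ratio ALDOC to ALDOA rose by a mean of 2.23 log2 units over the 3 lines and ENO2 to ENO1 by 2.95 (exact two-sided permutation test within lines, p = 0.00926 for each, the smallest the 216 arrangements can give, adjusted p = 0.0139 over 3 ratios). Both ratios were higher in 6 of 6 hypoxia libraries than in the normoxia libraries of their line. By line, the ALDOC to ALDOA ratio rose by 2.01, 2.12 and 2.57, and ENO2 to ENO1 by 2.49, 1.75 and 4.62 log2 units in RKO, A549 and H460. In RPKM at the listed lengths, ENO1 exceeded ENO2 60.6 times in H460 normoxia and 2.47 times in hypoxia. ENO3 to ENO1 had no common direction, with 2.10, -0.52 and -0.22 (mean 0.46, exact permutation p = 0.324). Among close relatives in the table, PGK2 had 0 counts in all libraries, and GAPDHS, PGAM2, PGAM4 and ENO4 had at most 37.

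Together the 9 genes took 0.992% ± 0.0992 of counted reads in RKO normoxia and 1.61% ± 0.191 in hypoxia, 1.62 times as much. In A549 the share went from 1.09% ± 0.119 to 1.81% ± 0.102, and in H460 from 1.12% ± 0.0638 to 2.95% ± 0.116, or 1.66 and 2.64 times. The single libraries were at 1.06% and 0.921%, then 1.74% and 1.47% in RKO, at 1.17% and 1.01%, then 1.73% and 1.88% in A549, and at 1.16% and 1.07%, then 3.03% and 2.86% in H460. Hypoxia was higher than normoxia in every line, with no overlap. GAPDH alone took 1.79% and 1.61% of all counted reads in H460 hypoxia, against 0.516% and 0.482% in normoxia. Of the reads of the 9 genes, GAPDH held 44.4% and 45.0% in H460 normoxia and 59.1% and 56.2% in hypoxia. In RKO its part went from 34.7% and 33.9% to 26.3% and 23.8%. No test was made of these sums.

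**Figure D5:**
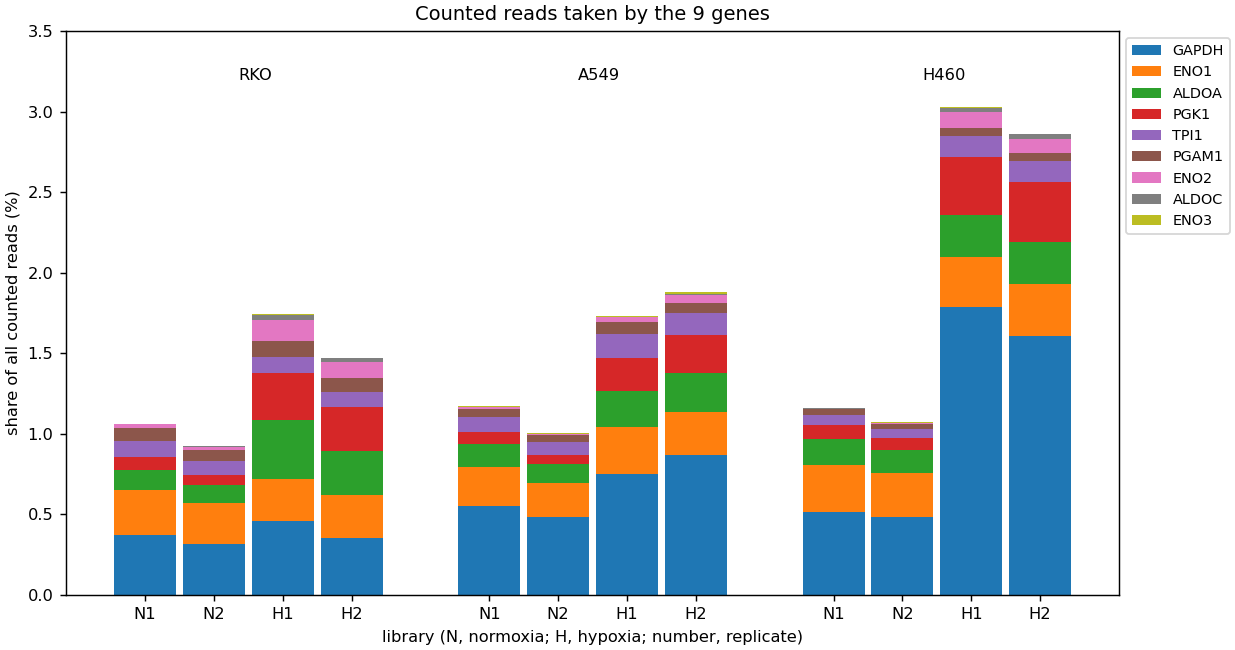
Share of all counted reads (vertical axis, %) taken by the 9 genes in each library, stacked by gene (N, normoxia and H, hypoxia, with the replicate number). The 2 H460 hypoxia libraries reach 3.03% and 2.86%, with GAPDH as the largest segment.

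The lines also differed before hypoxia. Of the 9 genes, 5 differed for RKO against A549 (60.2% of all genes did), 4 for RKO against H460 (61.9%) and 4 for A549 against H460 (52.1%), at the same adjusted p and fold minimum, so these shares were near or below the background. The calls were 3 higher in RKO (26.0%) and 2 lower (34.1%), 3 higher in RKO (27.2%) and 1 lower (34.7%), and 3 higher in A549 (26.9%) and 1 lower (25.2%). ENO2 was highest in RKO, by 1.25 ± 0.25 log2 units over A549 and 2.51 ± 0.27 over H460 (adjusted p = 5.30e-04 and 1.07e-06), and A549 exceeded H460 by 1.26 ± 0.26 (7.38e-04). ENO3 was lowest in RKO, by -4.47 ± 0.28 against A549 and -2.43 ± 0.26 against H460 (2.77e-09 and 1.19e-06), and A549 exceeded H460 by 2.04 ± 0.24. ALDOC was lower in A549 than in RKO (a difference of 2.00 ± 0.35, adjusted p = 1.62e-04) and H460 (-1.95 ± 0.35, adjusted p = 2.89e-04). Without RKO normoxia replicate 1, the RKO to A549 difference of ALDOC was 1.35. PGAM1 was higher in RKO than in A549 and H460, by 0.73 and 1.03, and TPI1 was higher in RKO and A549 than in H460, by 0.66 and 0.60. The smaller of these fell under the fold minimum without single libraries: PGAM1 against A549 without RKO normoxia replicate 1 or A549 normoxia replicate 2 (0.58 and 0.51), TPI1 in RKO without RKO normoxia replicate 1 or H460 normoxia replicate 2 (0.49 and 0.57), and TPI1 in A549 without A549 normoxia replicate 1 or H460 normoxia replicate 2 (0.50 and 0.53). GAPDH was lower in RKO than in A549 (-0.61, adjusted p = 0.0143), and was not called without RKO normoxia replicate 2 or A549 normoxia replicate 1 (-0.48 and -0.50). Against H460 it was under the fold minimum (-0.58), and passed it without RKO normoxia replicate 1, H460 normoxia replicate 2 or any 1 of the 4 hypoxia libraries of these lines. ALDOA, PGK1 and ENO1 were called different in no pair.

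Most genes of the steps before aldolase were called higher in each line. Of 8 genes for glucose uptake and the first reactions, RKO had 6 called higher, A549 6 and H460 7, where 18.8%, 2.22% and 24.6% of all genes tested were, and 0 were called lower (15.1%, 0.456% and 27.3%). Their median log2 fold changes were 0.80, 0.98 and 1.25, with medians over all genes of 0.01, -0.01 and -0.04. The phosphofructokinase PFKM was under the fold minimum in each line (-0.41, 0.01 and 0.33, adjusted p = 0.0570, 0.991 and 0.00995), and PFKP was not called in RKO (-0.09). The glucose transporters SLC2A1 (1.73, 1.78 and 1.12) and SLC2A3 (1.88, 1.67 and 3.71), the hexokinase HK2 (2.45, 2.52 and 2.76), the isomerase GPI (0.78, 0.83 and 1.34) and the phosphofructokinase PFKL (0.82, 1.12 and 1.68) were called in all 3 lines. Of 4 genes after enolase, LDHA, which makes lactate (0.63, 1.38 and 1.18), and SLC16A3, which exports it (0.68, 1.28 and 1.29), were called higher in all 3. The other 2 were PKM, the pyruvate kinase, called in no line (0.02, 0.56 and 0.49), and LDHB, the other main lactate dehydrogenase subunit, called lower in RKO (-0.79, adjusted p = 0.00502) and not called in A549 (-0.13) or H460 (-0.35). Of 8 enzymes of side branches joined to this stretch of the pathway, 0 were called higher in any line. The lower calls were 1 of 7 tested for RKO, 1 of 7 for A549 and 5 of 8 for H460. Beside them stood 15.1%, 0.456% and 27.3% of all genes, so that the RKO share was near the background. The median log2 fold changes of these branch enzymes were -0.36, -0.47 and -1.22.

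The 9 genes did not follow 1 pattern. Over the 12 libraries, with each line centred on its own mean, Pearson's r with the mean of the 9 was 0.995 for PGK1, 0.984 for ENO2, 0.982 for ALDOC and 0.954 for ALDOA. It was 0.895 for GAPDH, 0.892 for PGAM1, 0.876 for TPI1 and 0.808 for ENO1, and lowest for ENO3 at 0.533. That mean contains each of the 9 genes, and genes with large changes weigh most in it. Their r is thus raised by construction. TPI1 went with GAPDH (r = 0.979) and ENO1 (0.964) more closely than with ALDOA (0.727), and ALDOC went with PGK1 (0.990). ENO3 and ENO1 had r = -0.03. Of 11864 genes compared, those most like the mean of the 9 were GBE1 (0.996), C4orf3 (0.995), NOL3 (0.991), NARF (0.990) and SPAG4 (0.989). All points share the oxygen contrast and the library scaling, and these values describe likeness over 12 libraries only.

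Processed copies of these genes could take or lose reads. GENCODE names 65 pseudogenes of GAPDH, 13 of PGAM1, 4 each of ENO1 and TPI1 and 2 each of ALDOA and PGK1, and none under the symbols of ALDOC, ENO2 and ENO3. Of all runs of 100 bases in the canonical transcripts, 9.03% of those of TPI1 occurred unchanged in a named pseudogene and 0% of those of the other 8 genes. The longest stretch shared with a pseudogene was 161 bases for TPI1 and 60 to 95 for ALDOA, GAPDH, PGK1, PGAM1 and ENO1. The pseudogene TPI1P2 had 3 to 75 counts, TPI1P3 and PGAM1P5 at most 5 and the antisense gene ENO1-AS1 at most 22 in any library. Between the isoforms themselves the longest shared stretch was 44 bases for ALDOA and ALDOC and 50 for ENO1 and ENO2.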

How the data were processed

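Poly(A)+ RNA of RKO, A549 and H460 cells was sequenced as strand-specific, single-end libraries. The authors trimmed reads, aligned them with TopHat2 2.0.13 to GRCh37 with the UCSC annotation, removed alignments of low mapping quality and counted exon reads per gene with HTSeq 0.6.1, using the strand. The authors deposited whole-number counts per gene and library, and deposited RPKM values, which equalled count per gene length and summed counts. The tools and the build are those of the submitters' processing notes and the study's methods. All 12 libraries and 0 unused value columns were involved.

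Counts were tested per line by the quasi-likelihood test of edgeR 4.0.16 (R 4.3.3), after TMM scaling and for genes that passed 0.5 CPM in 2 or more libraries, with Benjamini-Hochberg adjustment across every gene tested. Differences between lines came from 1 joint fit of the 12 libraries. Where no tool is named, an adjusted p of a gene is from edgeR. Isoform ratios were tested on log2 (RPKM + 0.01) with an exact permutation test. All 9 genes are named, with genes of the other lists called in 1 direction in all 3 lines or in opposite directions in 2, close copies in the table, and the 5 genes most alike. The 9 genes and all lists were chosen with earlier results of these data known. PGK1, ALDOC, ENO2 and ENO1 were picked for display of sequence after their values were seen. The upstream windows were read from the GRCh37 genome at the listed gene ends, with genes spanning over 3000000 bases left out of the background. The window of 1 of the 9 genes and 1 related gene are not reported here. Scripts were tested on simulated counts. Alternatives were DESeq2 1.42.0, limma 3.58.1 on log2 RPKM with 0.1 or 1 added, RLE and library-size scaling, scaling without the 9 genes, no filter or a filter of 5 CPM, a replicate block, a joint fit, other fold minimums and leaving out each library. With 2 replicates per group the precision rests on their spread.

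Replicate numbers were not taken as pairs, since no label ties them. Same-numbered libraries did deviate together in RKO and A549 (r = 0.330 and 0.333), and less so in H460 (r = 0.0999). The A549 calls depend on this choice. With a replicate block in edgeR, GAPDH and PGAM1 were called higher there (adjusted p = 0.0011 and 3.16e-04), as were 1189 of all genes in place of 316.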

Additional observations from a re-analysis of the deposited data

Results flagged for a closer look

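The hypoxia response of 12 combinations of gene and pair of lines differed by the interaction test in the joint edgeR fit, in log2 units and with the first line minus the second. TPI1 differed by -0.78 between RKO and A549, by -1.50 for RKO and H460 and by -0.72 for A549 and H460. ENO3 differed by 2.14 between RKO and A549 and by 1.78 between RKO and H460. GAPDH differed by -1.91 for RKO and H460 and by -1.39 for A549 and H460. ENO2 differed by -2.67 for RKO and H460 and by -2.93 for A549 and H460. PGK1 differed by -0.65 for RKO and H460 and by -0.69 for A549 and H460, and ENO1 by -0.57 between RKO and H460, and these 3 smaller differences were the ones lost with library-size scaling. H460 was grown in another medium than RKO and A549, and line and medium cannot be told apart. Mean GAPDH went from 2635 RPKM in normoxia to 8983 in hypoxia in H460, and from 1799 to 2134 in RKO. Mean ENO2 went from 14.3 to 392 RPKM in H460, and from 83.2 to 467 in RKO. These RPKM levels are not TMM-scaled, whereas the tested differences are.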

How the results depend on the processing

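Over all alternatives, 1306 of 1404 values of single genes kept their side of the threshold. There were 42 that passed it where the reported value had not, and 56 that no longer passed. Of the 1306, 52 changed sign, all of genes called under neither setting. No called value changed sign. The count of genes called higher in A549, 5 as reported, was 3 with limma on log2 (RPKM + 1) and with a fold over 2. It was 4 with library-size scaling and with limma at 0.1 added, and 6 with a filter of 5 CPM. With DESeq2, the joint fit and no filter it was 7. Over all genes, 316 were called higher in A549 as reported, and 608, 957 and 587 in those 3 settings. For RKO against A549 the responses called lower, 1 as reported, were 4 with the replicate block and 2 with DESeq2. For RKO against H460 the higher and lower calls, 1 and 5 as reported, were 2 and 3 with library-size scaling and with limma at either added value. Among normoxic differences, RKO against A549 had 1 lower, not 2, with the replicate block and with a fold over 2, RKO against H460 had 2 lower, not 1, with RLE factors, a filter of 5 CPM or DESeq2 and 3 with no fold minimum, and A549 against H460 had 2 lower, not 1, with no fold minimum. The cause of these changes was not tested, except that a fold minimum acts by its own construction. The share of the 9 genes in H460 hypoxia, 2.95% of counted reads, was 3.65% of the TMM-scaled library size and 3.44% of summed RPKM, and that in A549 hypoxia was 2.01% of summed RPKM.

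Leaving out 1 library at a time, with the lone sample assumed to vary like the others, gave 5 to 5 genes called higher in RKO, 3 to 6 in A549 and 7 to 7 in H460, with 0 to 0 lower in each. The lowest A549 count came without normoxia replicate 2. The differences in response called higher and lower were 1 to 2 and 0 to 2 for RKO against A549, 1 to 1 and 3 to 6 for RKO against H460, and 0 to 0 and 3 to 6 for A549 against H460. The RKO against A549 lower count was 0 without RKO normoxia replicate 1, RKO hypoxia replicate 2 or A549 normoxia replicate 2. The normoxic differences called higher and lower were 2 to 3 and 1 to 2 for RKO against A549, 2 to 3 and 1 to 2 for RKO against H460, and 2 to 3 and 1 to 1 for A549 against H460. With the replicate block, which pairs libraries that share only a number, 7 genes were called higher in A549, with GAPDH and PGAM1 added (adjusted p = 0.0011 and 3.16e-04), and the ALDOC and ENO2 ratios had an exact p = 0.03125, adjusted 0.0469, over 64 arrangements. With 2 replicates a group, a change smaller than the intervals given may have been missed.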
